A study of Homo sapiens with 6 samples.

Results

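The genes described here are 43 genes of DNA replication and S phase, read on arrays of 2 human lymphoma cell lines after knockdown of EZH2. Members were listed by symbol, and each gene was read from its single-gene probe set with the highest mean log2 signal over 6 arrays. All 43 had such a probe set, and they are 43 of the 13036 genes tested. KARPAS-422 and Pfeiffer are established cell lines from diffuse large B-cell lymphoma, which arises from mature B cells. Each received lentivirus that carried a hairpin directed at EZH2 (shEZH2) or a hairpin with no target (shNTC), was selected in puromycin, and is labelled as 10 days of knockdown. Each arm of KARPAS-422 was read on 2 arrays, which the labels call biological replicates, and each arm of Pfeiffer on 1. Every arm rests on 1 hairpin sequence in a virus-infected, drug-selected culture, and no uninfected cells were included among the 6 samples. The labels do not say whether replicates were separate infections, and p-values therefore cover the spread from array to array, which may be technical.

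Each cell copies its genome once per S phase. In G1 the origin recognition complex, with CDC6 and CDT1, loads the MCM2-7 helicase onto origins. CDC45, GINS and MCM10 then help to activate the helicase, and DNA polymerases follow behind it, held to the template by the PCNA ring that the RFC complex loads. Many of these genes are transcribed by E2F factors at the passage from G1 to S, so in a growing culture their RNA also follows how many cells are in cycle. EZH2 is the enzyme of Polycomb repressive complex 2, which methylates histone H3, and is itself a gene of dividing germinal centre B cells. In bulk RNA, fewer cells in S phase and less RNA of these genes per cell cannot be told apart.

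Signals are on the log2 scale of MAS5, and a difference is the shEZH2 mean minus the shNTC mean. EZH2 fell by 1.11 in KARPAS-422 (SE 0.10, limma adjusted p = 7.73e-04), to 46.3% of control, and read 37.6% of control in Pfeiffer. Arrays were scaled to a 2% trimmed mean of 500 each. Of 7 B cell markers, 6 had a single-gene probe set, and all 6 lay above the median of all values (6.21) on all 6 arrays. Myeloid markers were near the bottom of the range, with summed linear signals of 108.3 to 218.2 over 7 genes. The 7 T and NK cell markers gave summed signals of 10050 and 10700 with shNTC and of 7193 and 6639 with shEZH2 in KARPAS-422. Most of that sum came from CD3D, CD3G and CD247, while CD2 and NKG7 were below the median of all values on every array. In Pfeiffer the same sum was 4983 with shNTC and 5429 with shEZH2. Of 8 fibroblast and epithelial markers, DCN was bright in KARPAS-422 and EPCAM in Pfeiffer, and the list summed to 9245 to 13920. The 3' minus 5' signal of the ACTB control probe sets was 0.0593 and 0.0830 with shNTC and 0.138 and 0.175 with shEZH2 in KARPAS-422. That of the GAPDH control probe sets was -0.182 and -0.158 with shNTC and -0.169 and -0.241 with shEZH2, so its arms overlapped. The part of these differences between arms in the results below was not tested.

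Most replication genes fell in KARPAS-422 after EZH2 knockdown. Of 43 members, 34 were called lower (79.1%), against 12.3% of all genes tested, and 1 was called higher, against 13.1%. A call means an adjusted p under 0.05 in limma, with Benjamini-Hochberg adjustment over all 13036 genes. The median difference was -0.54 over the members and -0.019 over all genes. Both shEZH2 arrays lay below both shNTC arrays for 37 members (86.0%), which 33.9% of all genes also did. All 43 members lay above the median of all values on all 6 arrays, so none passed the filter through 1 arm. The count of calls moved with each array left out, and the count over all genes also dropped in each of those fits. Without shNTC replicate 1, 24 were called lower, without shNTC replicate 2 it was 29, without shEZH2 replicate 1 it was 21 and without shEZH2 replicate 2 it was 15. All 35 called members kept their direction in those 4 fits, and 14 kept their call in each: CDC6, MCM5, MCM6, MCM7, MCM10, CDC45, GINS2, GINS4, POLD1, RFC4, FEN1, RRM2, CHEK1 and CHAF1A. The calls of ORC1, MCM2, MCM4, GINS1, POLE2, RFC2 and RRM1 held in 3 of the 4, and those of PRIM1, RFC3, RFC5 and E2F2 in 2. Those of ORC6, CDT1, MCM3, POLA1 and E2F1 held in 1, and those of PCNA, TYMS, TK1, CHAF1B and SLBP in 0. With no intensity trend in the variance model, 6 were called lower and 32 had an unadjusted p under 0.05. Over all genes that model called 720 in either direction, against 3305 with the trend. The share of all genes past the unadjusted threshold was not counted.

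**Figure D1:**
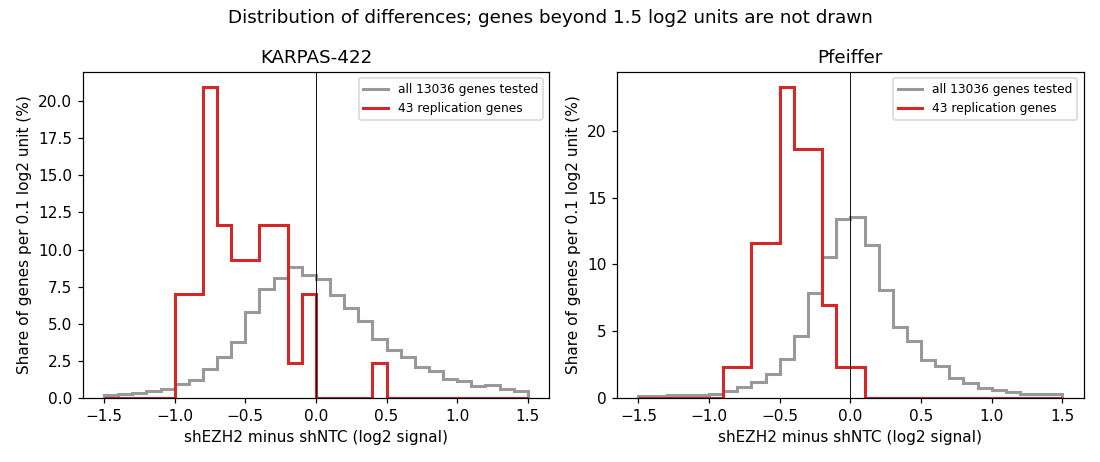
Share of genes (%) per 0.1 log2 unit of the difference shEZH2 minus shNTC, for all 13036 genes tested (grey) and the 43 replication genes (red), in KARPAS-422 (left, 2 arrays per arm) and Pfeiffer (right, 1 array per arm). The replication genes lie to the left of all genes in both lines, with medians of -0.54 and -0.41, and 1 member is above 0 in each.

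The genes that mark and license origins gave both the only rise and some of the deeper falls. Of 4, 3 fell and 1 rose. CDC6, the ATPase that helps to load the helicase, read 11.76 and 11.72 with shNTC and 10.89 and 10.96 with shEZH2. Its shEZH2 arrays both lay well below control, a fall of 0.81 (SE 0.091, adjusted p = 0.00174). The loading factor CDT1 read 11.98 and 11.38 with shNTC and 10.998 and 10.91 with shEZH2. Its control arrays differed from each other by more than those of any other member, and the fall of 0.73 (SE 0.18, adjusted p = 0.0266) was -0.43 without shNTC replicate 1 and -1.03 without shNTC replicate 2, and the call was lost without shNTC replicate 1 or either shEZH2 array. ORC1, the largest subunit of the origin recognition complex, fell by 0.91 (SE 0.15, adjusted p = 0.00718). ORC6, the smallest subunit of the same complex, read 11.41 and 11.33 with shNTC and 11.76 and 11.82 with shEZH2. It was the member that rose, by 0.42 (SE 0.089, adjusted p = 0.0154), and its arms did not overlap. Its only probe set has the suffix _x_at, given to probe sets in which some probes may also match other transcripts. The ORC6 call was lost without either shEZH2 array or shNTC replicate 2, at adjusted p from 0.0624 to 0.0892.

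All 6 subunits of the MCM2-7 ring, the motor that unwinds DNA, fell in KARPAS-422. MCM7 read 12.96 and 12.78 with shNTC and 11.93 and 11.90 with shEZH2. The arms were far apart, with a fall of 0.95 (SE 0.091, adjusted p = 9.04e-04) that left 51.7% of control. MCM2, MCM5 and MCM6 fell by 0.73, 0.72 and 0.72. MCM3 read 12.33 and 12.26 with shNTC and 11.95 and 11.85 with shEZH2. Its arms were also separate, but the fall was smaller, 0.39 (SE 0.084, adjusted p = 0.0154), and its call held only without shNTC replicate 2 among the 4 fits that left out an array. MCM4 fell by 0.44 on its brightest probe set, and by 0.69, 0.79 and 1.00 on the other 3 kept probe sets, in order of decreasing signal.

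Of the 6 genes that turn the loaded ring into a moving helicase, 5 fell. GINS2, a subunit of the 4-part GINS complex, read 11.78 and 11.67 with shNTC and 10.93 and 10.96 with shEZH2. That is a fall of 0.78 (SE 0.090, adjusted p = 0.00194) with no overlap. GINS4 fell by 0.97 (SE 0.12, adjusted p = 0.00261) on its brightest probe set, while its other 3 kept probe sets, all dimmer, differed by -0.25, -0.60 and -0.091. GINS1 fell by 0.51. GINS3 read 10.24 and 10.30 with shNTC and 9.93 and 10.06 with shEZH2. It was lower on both shEZH2 arrays, but its difference of -0.27 (SE 0.11, adjusted p = 0.104) was not called. CDC45, which binds MCM2-7 and GINS to form the active helicase, fell by 0.86 (SE 0.10, adjusted p = 0.0024), and MCM10 by 0.77 (SE 0.11, adjusted p = 0.00334).

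Among 6 polymerase and primase genes, 4 fell. POLD1, the catalytic subunit of polymerase delta, read 11.44 and 11.43 with shNTC and 10.73 and 10.57 with shEZH2. Both controls were level and both shEZH2 arrays lower, a fall of 0.79 (SE 0.11, adjusted p = 0.00323). POLE, the catalytic subunit of polymerase epsilon, read 9.08 and 9.17 with shNTC and 9.28 and 8.92 with shEZH2. Its arms overlapped and the difference was -0.025 (SE 0.17, adjusted p = 0.93). POLE2, the second subunit of the same polymerase, fell by 0.61. In the complex that starts new strands, PRIM1 fell by 0.72 and POLA1 by 0.54, whereas POLA2 differed by -0.29 (adjusted p = 0.0688) and was not called.

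All 6 genes of the sliding clamp, its loader and the flap endonuclease fell. The loader subunit RFC4 read 13.25 and 13.21 with shNTC and 12.65 and 12.57 with shEZH2. Its replicates were close within each arm, and the fall was 0.62 (SE 0.077, adjusted p = 0.00244). RFC2, RFC5 and RFC3 fell by 0.69, 0.49 and 0.39, and FEN1, which trims Okazaki fragments, by 0.59. PCNA, the clamp itself, read 13.56 and 13.45 with shNTC and 13.21 and 13.23 with shEZH2. The arms were separate but close, with a fall of 0.29 (SE 0.073, adjusted p = 0.0284), and it was no longer called when any 1 of the 4 KARPAS-422 arrays was left out or after quantile or cyclic loess normalization.

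Of the 5 genes of nucleotide synthesis, 4 fell. RRM2, the S phase subunit of ribonucleotide reductase, read 13.49 and 13.56 with shNTC and 13.08 and 12.94 with shEZH2. The arms were separate, a fall of 0.51 (SE 0.080, adjusted p = 0.00531), but its other probe set, nearly as bright (mean 13.06 against 13.25), differed by -0.11. Its partner RRM1 fell by 0.39, thymidylate synthase (TYMS) by 0.32 and thymidine kinase (TK1) by 0.42. The TYMS and TK1 calls were lost in each of the 4 fits without a KARPAS-422 array, and the TYMS call also after quantile or cyclic loess normalization. DUT, which removes dUTP, read 14.03 and 13.92 with shNTC and 13.79 and 13.71 with shEZH2. Its difference of -0.22 (SE 0.072, adjusted p = 0.0599) was not called, and it was 0.029 after quantile and 0.068 after cyclic loess normalization. The median of the 5 genes moved from -0.39 as deposited to -0.23 after quantile and -0.19 after cyclic loess normalization, when 3 and 2 were called lower.

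In control of the passage from G1 to S, 3 of 7 genes fell and 4 were not called. CHEK1, the checkpoint kinase of stalled forks, read 10.45 and 10.43 with shNTC and 9.42 and 9.66 with shEZH2. Its fall of 0.90 (SE 0.12, adjusted p = 0.00352) was among the largest, and the arms were far apart. The activator E2F2 fell by 0.62 (SE 0.12, adjusted p = 0.0107). E2F1, of the same kind, fell by 0.67 (SE 0.18, adjusted p = 0.0308), a call held only without shNTC replicate 2 among those 4 fits, and its other probe set of similar signal (mean 8.91 against 9.08) differed by -0.23. E2F8, a repressor of the same family, read 10.85 and 11.02 with shNTC and 10.90 and 10.88 with shEZH2. All 4 arrays lay close together and the difference was -0.047 (SE 0.11, adjusted p = 0.778). The cyclin E genes CCNE1 and CCNE2, partners of CDK2 at S phase entry, differed by -0.080 and -0.12 and overlapped between arms, as did the phosphatase CDC25A (-0.32, adjusted p = 0.302).

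Genes that couple replication to chromatin fell, 3 of 3. CHAF1A, the large subunit of the histone chaperone CAF-1, read 11.06 and 11.06 with shNTC and 10.32 and 10.21 with shEZH2. The controls were level and the fall was 0.80 (SE 0.10, adjusted p = 0.00288). CHAF1B, another CAF-1 subunit, read 9.35 and 9.42 with shNTC and 9.001 and 8.78 with shEZH2. Its fall of 0.50 (SE 0.15, adjusted p = 0.0457) was called with all arrays and in none of the 4 fits without a KARPAS-422 array. SLBP, which binds the stem-loop of histone mRNA, fell by 0.29 (SE 0.077, adjusted p = 0.0314), and this call was lost in the same 4 fits and after quantile or cyclic loess normalization.

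**Figure D2:**
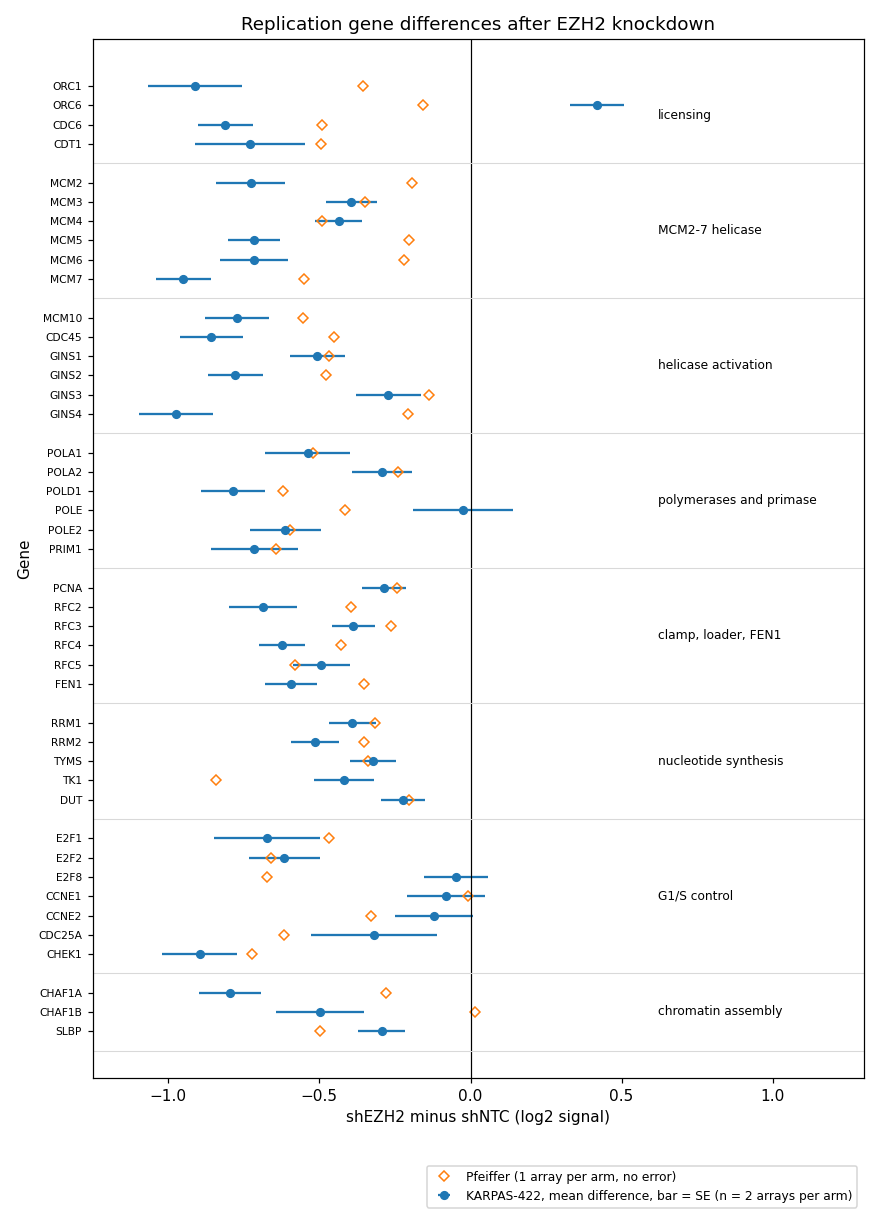
Difference shEZH2 minus shNTC in log2 signal for each of the 43 genes, grouped by role: blue points are KARPAS-422 means with SE (2 arrays per arm), open orange diamonds are Pfeiffer (1 array per arm). In KARPAS-422 only ORC6 lies above 0, at 0.42, and in Pfeiffer only CHAF1B, at 0.014.

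Promoters were examined because these genes moved together and many are textbook E2F targets. RefSeq windows from 250 bases before to 50 after the annotated start (GRCh38.p14) were at hand for 38 of 43 members. The E2F-type words TTTCCCGC, TTTCGCGC, TTTGCCGC and TTTGGCGC were searched on both strands, and the search and the windows shown were chosen after the values were seen. At least 1 match was in 19 of 38 members (50%), against 3.33% of 27305 promoters of all genes and 5.25% of 10537 promoters of genes tested. Since many members are textbook E2F targets, a share above that of all promoters came with the list and is no test of the knockdown. A CCAAT match on either strand was in 21 of 38 (55.3%), against 35.7% of all promoters. By call, 15 of 31 windows of members that fell held an E2F-type match, as did 4 of 6 of members not called. CDC45 and ORC1 fell and had no match, while POLE and CDC25A were not called and had 1 each. None of these genes is among the stretches shown. The 120 bases before the start are shown for 4 genes with matches that fell (MCM6, MCM7, E2F1 and PCNA), for ORC6, which rose, and for CCNE1, whose arms overlapped. Capitals mark the E2F-type matches, and each is written 5′ to 3′ on the gene's strand. MCM6 lies at chr2:135876444-135876563 (minus strand), MCM7 at chr7:100101398-100101517 (minus strand), E2F1 at chr20:33686386-33686505 (minus strand), PCNA at chr20:5126623-5126742 (minus strand), ORC6 at chr16:46689539-46689658 (plus strand) and CCNE1 at chr19:29811871-29811990 (plus strand).
MCM6: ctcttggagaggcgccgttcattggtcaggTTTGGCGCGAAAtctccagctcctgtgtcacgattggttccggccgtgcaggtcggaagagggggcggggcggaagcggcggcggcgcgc
MCM7: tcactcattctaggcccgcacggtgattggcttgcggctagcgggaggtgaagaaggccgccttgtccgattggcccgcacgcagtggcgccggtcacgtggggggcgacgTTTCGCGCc
E2F1: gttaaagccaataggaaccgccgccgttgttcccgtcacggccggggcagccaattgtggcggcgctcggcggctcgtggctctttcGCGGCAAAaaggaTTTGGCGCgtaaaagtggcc
PCNA: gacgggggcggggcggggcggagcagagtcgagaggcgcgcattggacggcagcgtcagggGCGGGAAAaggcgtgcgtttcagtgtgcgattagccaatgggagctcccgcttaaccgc
ORC6: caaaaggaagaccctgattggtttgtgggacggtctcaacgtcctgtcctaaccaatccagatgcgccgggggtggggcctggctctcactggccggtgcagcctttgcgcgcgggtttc
CCNE1: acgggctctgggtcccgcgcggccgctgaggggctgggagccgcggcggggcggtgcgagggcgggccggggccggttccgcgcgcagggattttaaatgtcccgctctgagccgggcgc

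Positions below are of the first base of a match relative to the start. In MCM6 a TTTGGCGC at -90 overlaps a TTTCGCGC on the other strand at -86, and the same overlap recurs at -152 and -148, outside the stretch shown. MCM7 holds TTTCGCGC at -9 and, outside the stretch shown, TTTCCCGC on the other strand at -187. E2F1 has matches at -33 and -20, and PCNA has 1 at -59. No match was found in the windows of ORC6 or CCNE1. A match is a string of letters and not a measured binding site.

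Pfeiffer showed lower values for nearly all of the same genes, with no replicate check. Of 43 members, 42 read lower with shEZH2, and 12 (27.9%) were lower by at least 0.5, which 6.11% of all genes were. The median was -0.41, against 0.032 over all genes. None was higher by at least 0.5, against 11.9% of all genes, and 0 were lower by at least 1, against 1.48%. Between the 2 KARPAS-422 shNTC arrays 1 member, CDT1, was lower in replicate 2 by at least 0.5 (7.45% of all genes were) and 0 were higher (9.12%). Between its 2 shEZH2 arrays 0 were lower (6.59%) or higher (6.87%) by that much. After median centring of the arrays, 23 members were lower by at least 0.5 in Pfeiffer, when 9.69% of all genes were.

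TK1 differed most in Pfeiffer, from 12.22 to 11.38, a difference of -0.84 against -0.42 in KARPAS-422. CHEK1 went from 11.11 to 10.39 (-0.72), and E2F8 from 10.97 to 10.30 (-0.67). For E2F8 the KARPAS-422 difference was -0.047. CHAF1B went from 9.05 to 9.07 and was the member that did not read lower. ORC6 went from 11.74 to 11.58 and CCNE1 from 10.996 to 10.99. CDC6 went from 11.70 to 11.21, MCM7 from 12.18 to 11.63 and POLD1 from 10.69 to 10.07. These 3 were lower in both lines, each by less in Pfeiffer than in KARPAS-422.

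By role, the median difference in KARPAS-422 and in Pfeiffer was -0.78 and -0.46 for helicase activation, -0.77 and -0.42 for licensing, and -0.72 and -0.28 for MCM2-7. It was -0.58 and -0.56 for polymerases and primase, and -0.54 and -0.37 for the clamp group. For chromatin assembly it was -0.50 and -0.28, for nucleotide synthesis -0.39 and -0.34, and for G1/S control -0.32 and -0.62. The deepest medians were thus in the genes that load and start the helicase in KARPAS-422, and in G1/S control and the polymerases in Pfeiffer. Differences between roles were not tested, and the medians of some roles moved with scaling. After cyclic loess normalization MCM2-7 in KARPAS-422 was at -0.52 and chromatin assembly at -0.61, so the order of roles changed.

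**Figure D3:**
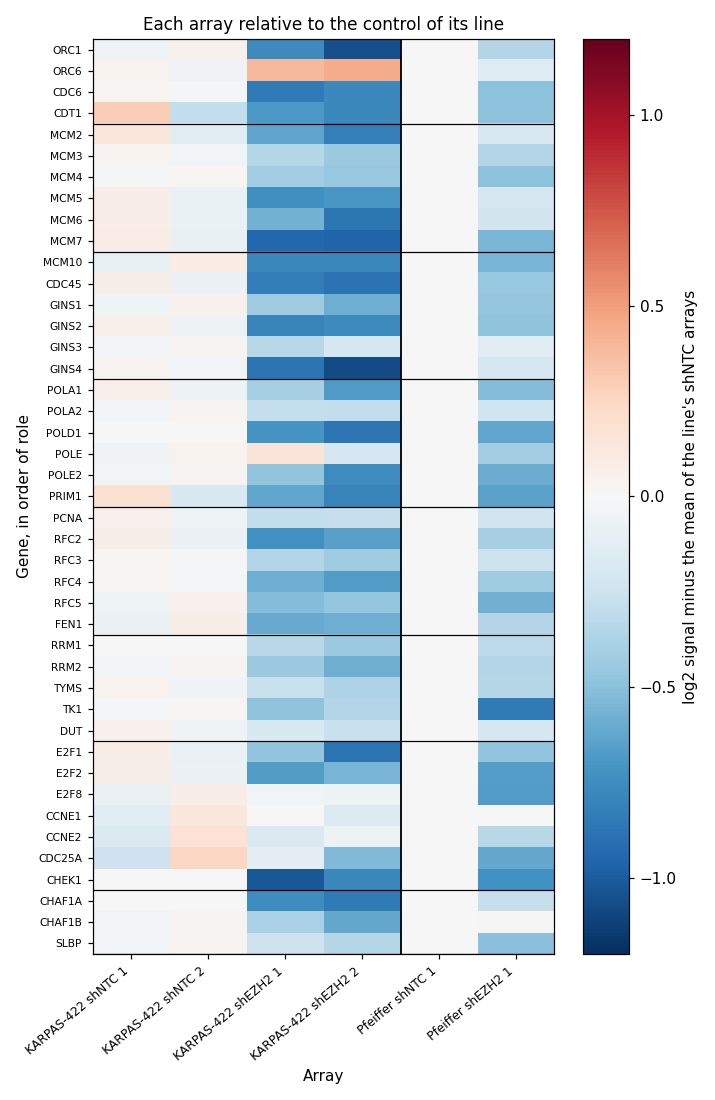
Log2 signal of each of the 43 genes (rows, in order of role) on each of the 6 arrays (columns), minus the mean of the shNTC arrays of the same line; blue is lower and red is higher. Both KARPAS-422 shEZH2 columns and the Pfeiffer shEZH2 column are blue for most genes, and the Pfeiffer shNTC column is 0 by construction.

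The test of the difference between lines called 0 of 43 members in limma, against 0.453% of all genes lower and 1.25% higher. At an unadjusted p under 0.05 there were 6 members lower and 3 higher, and the smallest adjusted p was 0.13, for ORC6. How many of all genes passed that unadjusted threshold was not counted, so these counts cannot be set against all genes. The SE of this difference was 0.12 to 0.36, since the Pfeiffer arrays are single and were assumed to vary like KARPAS-422 replicates. The largest were GINS4 at -0.77 (SE 0.21, adjusted p = 0.137), E2F8 at 0.63 (SE 0.18, adjusted p = 0.155) and ORC6 at 0.58 (SE 0.15). A missed threshold does not show that the lines responded alike.

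With both lines in 1 model and a term for the line, 28 of 43 members were called lower (65.1%), against 2.46% of all genes, and 0 higher in limma, against 3.76%. None was higher at an unadjusted p under 0.05 either. This comparison uses the same KARPAS-422 arrays as above. Its difference is weighted toward KARPAS-422, which has 2 arrays per arm against 1 in Pfeiffer, and is not an even average of the lines. CHEK1 (-0.84, SE 0.11, adjusted p = 0.0227) and MCM7 (-0.82, SE 0.11, adjusted p = 0.0208) had the largest falls. The calls rested on all 4 KARPAS-422 arrays: without any 1 of them limma called 0 members, while 33 to 36 were lower at an unadjusted p under 0.05. Over all genes those fits called 17 or fewer after adjustment, and genes past the unadjusted threshold were not counted. Without a filter on dim probe sets 16 members were called lower, when 302 of all genes were called in either direction, against 811 with the filter. Without the intensity trend 0 members and 0 of all genes were called.

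Other probe sets of the same genes mostly gave the same direction. The 43 members had 85 kept probe sets, of which 82 were lower in KARPAS-422 and 79 in Pfeiffer. Of 26 members with several kept probe sets, all were lower in KARPAS-422 for 24 members and in Pfeiffer for 21. The exceptions in KARPAS-422 were GINS2, at 0.010 on a probe set of mean signal 6.56, and RFC5, at 0.53 on 1 of mean signal 9.11, against -0.49 on its brightest. For DUT the 3 probe sets read -0.22, -0.37 and -0.68 from brightest to dimmest. Without probe sets named _x_at or _s_at, 34 members were measured, of which 22 were called lower in KARPAS-422 and 15 over both lines.

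The lines were also compared with the control hairpin, where Pfeiffer has 1 array and was assumed to vary like the KARPAS-422 replicates, so its own spread is not in these SEs and p-values. Of 43, 14 members were called higher in KARPAS-422 than in Pfeiffer (32.6%, against 21.7% of all genes) and 8 lower (18.6%, against 22.5%). The share called lower was thus near that of all genes, and the share called higher was above it. The median over the members was 0.22, against -0.0076 over all genes, and 33 read higher in KARPAS-422. The difference in shares was not tested. The clamp loader gene RFC3 was higher in KARPAS-422 by 1.55 (SE 0.088, adjusted p = 1.24e-05), CCNE2 by 1.54 (SE 0.16, adjusted p = 2.18e-04) and CDC45 by 1.07 (SE 0.13, adjusted p = 4.84e-04). Lower in KARPAS-422 were GINS3 at -1.28 (SE 0.13, adjusted p = 2.25e-04), TK1 at -1.18 (SE 0.12, adjusted p = 2.16e-04) and GINS2 at -0.89 (SE 0.11, adjusted p = 5.67e-04). Members of 1 complex or family thus went opposite ways, since GINS4 was higher, at 0.98 (SE 0.15, adjusted p = 0.00153), and CCNE1, the other cyclin E gene, was lower, at -0.67 (SE 0.16, adjusted p = 0.011). The 6 polymerase and primase genes all read higher in KARPAS-422, with 3 called: POLD1, PRIM1 and POLE2. After median centring 25 members were called higher and 6 lower, when 6231 of all genes were called in either direction, against 5764 as deposited. For GINS2 the difference was 0.12 on the brighter of its other 2 kept probe sets, used when _s_at probe sets were dropped.

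**Figure D4:**
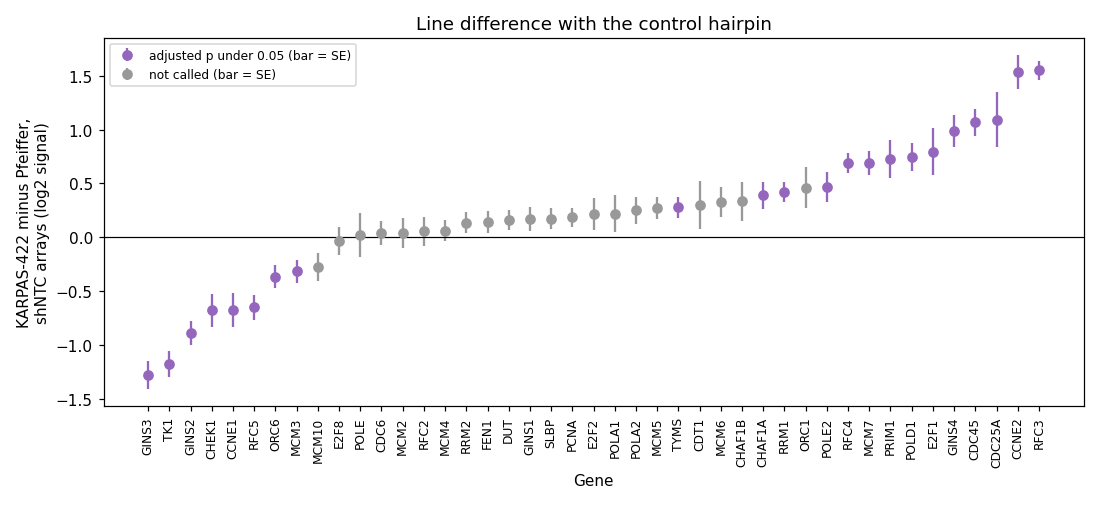
KARPAS-422 minus Pfeiffer in log2 signal with the control hairpin for each of the 43 genes, sorted, with SE (2 arrays against 1); purple points had an adjusted p under 0.05. The values run from -1.28 for GINS3 to 1.55 for RFC3.

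A further list held replication genes outside the 43. Of 48 listed, 47 were measured, and in KARPAS-422 21 fell and 1 rose, with a median of -0.35 against -0.019 over all genes, of which 12.3% were called lower and 13.1% higher. DNA ligase I (LIG1) differed by -0.76 (SE 0.12, adjusted p = 0.00599), ORC5 by -0.68 (SE 0.13, adjusted p = 0.0103), TIPIN of the fork protection complex by -0.65 (SE 0.094, adjusted p = 0.00426) and ATAD5, which helps to unload PCNA, by -0.65 (SE 0.18, adjusted p = 0.0384). SAMHD1, an enzyme that degrades deoxynucleotides and is also an interferon-stimulated gene, was the gene that rose, by 1.09 (SE 0.093, adjusted p = 6.08e-04). It read -0.14 in Pfeiffer, and the difference between lines was called (1.23, SE 0.16, adjusted p = 0.0162). Leaving out the first shEZH2 array gave 1.27 and leaving out the other gave 1.19, and the call was lost in both fits. It was also lost with no trend in the variance model (adjusted p = 0.164 in limma). The calls of this test over all genes dropped in these 3 fits too, to 1 without the trend, against 222 with it. Of the 47 genes, fewer than 21 were called lower in KARPAS-422 with any 1 of its arrays left out, at medians of -0.38 to -0.31. Without the intensity trend 0 were called lower. Calls over all genes in KARPAS-422 also dropped in those fits, to 720 without the trend.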

How the data were processed

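Each of 6 samples was measured on 1 array. The deposited table holds log2 signals made by the authors with MAS5, per the submitters' processing notes, which give no version. The log base was not stated. Values back-transformed with base 2 had a 2% trimmed mean of 500 on every array, so they were read as log2 of scaled signals. No normalization between arrays, detection call or scan date was used here.

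Probe sets with 1 gene symbol (41091 of 54675) were kept where at least 2 of 6 arrays lay above 6.21, and each gene was read from the kept probe set with the highest mean. limma 3.58.1 in R 4.3.3 (lmFit, eBayes with an intensity trend, two-sided) was fitted to 4 groups over 6 arrays, with 2 residual and 5.24 prior degrees of freedom, and with a term for the line for both lines (3 and 4.72). Pfeiffer alone was not tested. Replicate numbers did not pair the KARPAS-422 arrays (r = 0.0065 between deviations), and no 2 arrays were identical. The fits were tested on simulated data, whose spread was changed once, from raw to moderated SDs, after a first run missed its target. Members and lists were chosen with earlier results of these data known. All members may be named, and values per array are given for the smallest and largest KARPAS-422 p of each role, the 3 largest Pfeiffer differences and ORC6, the last chosen after its values were seen. Alternatives were scaling, filter, probe set rule, pseudocount, variance trend, arrays fitted, a replicate block and leaving out each array.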

Additional observations from a re-analysis of the deposited data

Results flagged for a closer look

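SAMHD1 was marked for a closer look because its knockdown difference was not the same in both lines by the test of that difference. It read 11.02 and 10.95 with shNTC and 12.04 and 12.12 with shEZH2 in KARPAS-422, and 11.11 and 10.97 in Pfeiffer. The KARPAS-422 difference exceeded the Pfeiffer difference by 1.23 (adjusted p = 0.0162), and over the alternatives by 1.19 to 1.67, with adjusted p from 0.00484 to 0.164. No member of the 43 was called in that test.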

How the results depend on the processing

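No alternative was added to the planned ones. Of the members, 29 of 35 KARPAS-422 calls held in all 3 other scalings and 14 in all 4 fits without 1 KARPAS-422 array. Each fit that left out 1 KARPAS-422 array called fewer than 34 members lower in KARPAS-422 (median -0.59 to -0.47). For leaving out 1 array at a time, the median over both lines ran from -0.54 to -0.45. Calls over both lines were lost in each fit without a KARPAS-422 array. Without a Pfeiffer array 34 were lower and 1 higher, but there only KARPAS-422 informs the difference. The median difference between lines ran from -0.16 to -0.051. Without the intensity trend, KARPAS-422 had 6 lower and 0 higher, both lines 0, and the control comparison of the lines 7 higher and 5 lower. Over all genes that setting called 720, 0 and 4562 in these comparisons. Without _x_at and _s_at probe sets, 34 members were measured, and counts were 22 lower and 0 higher in KARPAS-422 and 15 lower over both lines. Over all genes that setting called 2265 in KARPAS-422 and 501 over both lines, in either direction. In Pfeiffer 1 member was then higher by at least 0.5. Without a filter on dim probe sets, 16 were lower over both lines. Median centring gave 23 lower in Pfeiffer (median -0.53), a median of -0.61 over both lines and 25 higher between lines (median 0.41). It moved the median of all Pfeiffer genes from 0.032 to -0.087. Medians were -0.45 over both lines after quantile normalization, and -0.44 in KARPAS-422, -0.42 over both lines and 0.15 between lines after cyclic loess. At 1 log2 unit 0 members were lower in Pfeiffer.

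Replicate numbers did not pair the arrays (r = 0.0065). With the replicate block, 34 members were lower in KARPAS-422 and 0 over both lines. Over all genes the block gave 3626 calls in KARPAS-422 and 11 over both lines, in either direction. Signs turned in KARPAS-422 for DUT (0.029 quantile, 0.068 cyclic loess), and with arrays left out in turn for POLE (-0.20 to 0.15), E2F8 (-0.13 to 0.036), CCNE1 (-0.21 to 0.049, and -0.12 to 0.024 over both lines) and CCNE2 (-0.30 to 0.054). The positive values came without shNTC replicate 2 (POLE 0.019) or, for POLE and CCNE1 (7.7e-05), shEZH2 replicate 2. Without _x_at and _s_at probe sets they turned over both lines for GINS2 (0.031) and POLA2 (0.13), and between lines for GINS2 (0.12). The cause was not tested. Single genes were followed in the line comparison only where called, and in the difference between lines only for GINS4, E2F8 and ORC6, a choice made after the values were seen. With 2 arrays per arm and 1 in Pfeiffer, the number of arrays limits precision.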

Other observations

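Regulators of the passage from G1 to S outside the members were mixed in KARPAS-422. Of 41 listed, 38 were measured, 9 fell and 5 rose, with a median of -0.18 against -0.019 over all genes. Of all genes 12.3% were called lower and 13.1% higher, so the share that rose was near that of any gene. Cyclin A2 (CCNA2) differed by -1.03 (SE 0.080, adjusted p = 4.13e-04), the ubiquitin ligase subunit SKP2 by -0.82 (SE 0.15, adjusted p = 0.00906), the transcription factor MYBL2 by -0.71 (SE 0.15, adjusted p = 0.0159) and CKS1B by -0.65 (SE 0.10, adjusted p = 0.00524). Among those that rose, FBXW7, which targets cyclin E for degradation, differed by 0.93 (SE 0.14, adjusted p = 0.00436), the repressor E2F7 by 0.83 (SE 0.15, adjusted p = 0.00887), the pocket protein gene RBL2 by 0.63 (SE 0.096, adjusted p = 0.00513) and the DNA damage kinase ATM by 0.52 (SE 0.12, adjusted p = 0.0193). In Pfeiffer these 4 read 0.46, -0.40, 0.48 and 0.12. Fewer were called with any 1 KARPAS-422 array left out, at medians of -0.23 to -0.17. The calls of the genes that rose, including these 4, were lost without shEZH2 replicate 2. Without the intensity trend 1 fell and 1 rose. Calls over all genes also dropped in those fits, to 720 without the trend.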
